A study of Mus musculus with 6 samples.

Results

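The comparison of a BH4-treated cardiac allograft with a cardiac syngraft rests on 2 of the 6 arrays of the series, 1 for each group. It takes the array labelled BH4 minus the array labelled Syngen over all probe sets other than controls, 22626 of the 22690 on each array, which stand for 12393 genes. Both hearts were mouse grafts. The BH4 array held total RNA of an allograft whose recipient was given tetrahydrobiopterin at 50 mg/kg every 8 h, and the syngraft came from an untreated syngeneic transplant. The remaining arrays serve here to place the BH4 values. They came from an allograft given ABH4, which is 4-amino tetrahydrobiopterin, at 50 mg/kg every 8 h, one given NIL (N-imino ethyl-L-lysine) at 5 mg/kg every 8 h, one given CsA (cyclosporin A) at 15 mg/kg every 24 h, and an untreated allograft. Mouse strains, the day of removal and whether several grafts were pooled on an array are not given in the sources used here. Each group had 1 array, so no difference below could be tested against a spread between grafts, and no p-value or SD is given. Differences between strains, between single grafts and between allogeneic and syngeneic transplantation cannot be told apart.

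A heart transplanted across a histocompatibility difference is invaded by T cells and macrophages. Interferon-gamma from activated lymphocytes then acts on graft and infiltrating cells and switches on antigen presentation, the chemokines that attract more T cells, and large guanylate-binding and immunity-related GTPases. Nitric oxide synthases need tetrahydrobiopterin as a cofactor, which cells make from GTP by a pathway whose first enzyme is Gch1, and the 4-amino analog ABH4 antagonises it. NIL inhibits the inducible nitric oxide synthase Nos2, and CsA blocks calcineurin and with it T cell activation. Fibroblasts of the graft make the collagens and the other matrix proteins on which scar and wall stiffness depend.

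Signals are linear fluorescence intensities of the deposited table after each array was set to a common median. Signals under 34.8, the 30th percentile of all values, were set to that value, called the floor. A fold against an array at the floor is a lower bound and is written as at least that fold, and no fold is given where both arrays were at the floor. The deposited median was 78.5 on the BH4 array and 88.5 on the syngraft array, and over the 6 arrays it ran between 77.7 and 88.5. As a sign of RNA integrity, the ratio of 3' to 5' signal was 1.12 with BH4 and 1.13 on the syngraft array for Actb, and 0.861 with BH4 and 0.876 on the syngraft array for Gapdh. Both arrays carried the transcripts that define heart muscle. Myh6, the alpha myosin heavy chain, had a signal of 3236 with BH4 and 3340 on the syngraft array, and cardiac actin Actc1 had 8224 with BH4 and 7266 on the syngraft array.

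Relative to the syngraft, 760 genes (6.13% of 12393) were at least 2-fold higher with BH4 and 431 (3.48%) at least 2-fold lower. At 3-fold the counts were 300 higher (2.42%) and 78 lower (0.629%). The untreated allograft, set against the same syngraft array, had 849 genes at least 2-fold higher (6.85%) and 592 lower (4.78%), and 339 at least 3-fold higher (2.74%) and 198 lower (1.6%). Both comparisons use the same syngraft array. Directly between BH4 and the untreated allograft, 191 genes (1.54%) were at least 2-fold higher and 51 (0.412%) at least 2-fold lower with BH4. The signal with BH4 lay within 1.5-fold of the untreated allograft for 11371 genes (91.8%) and within 1.5-fold of the syngraft for 9362 (75.5%). The count within 1.5-fold of the syngraft includes 2356 genes at the floor on both of those arrays.

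The balance of higher and lower genes depended on how the arrays were scaled. On the values as deposited, the counts at 2-fold were 564 genes higher and 656 lower with BH4, since the array medians differed by -0.17 (BH4 minus syngraft, log2) before rescaling. Of the genes at least 2-fold away, 157 higher and 110 lower ones are lower bounds, and 45 higher and 15 lower ones have another probe set that differs in sign. The list medians below are therefore given for the rescaled values. Every median of BH4 minus syngraft named in the text kept its direction without rescaling and after quantile normalization, with the exception of fatty acid oxidation. The medians of the other allograft arrays were not recomputed under other scalings.

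**Figure D1:**
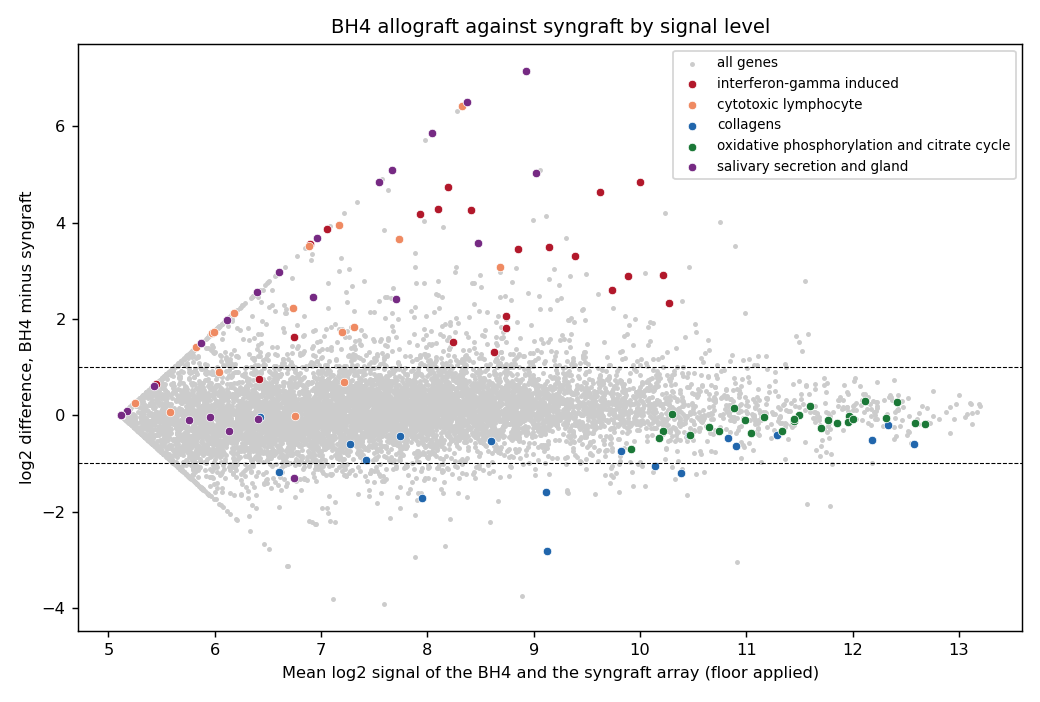
Log2 difference BH4 minus syngraft (vertical axis) against the mean log2 signal of the BH4 and syngraft arrays (horizontal axis) for 12393 genes, 1 array per group, with dashed lines at 2-fold and 5 lists in colour. The 22 interferon-gamma genes lie above 0 and the 19 collagens below 0, mitochondrial energy genes (respiratory chain and citrate cycle) lie close to 0 at the bright end, and Bpifa2 of the salivary list is the topmost point.

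What remained of the allograft profile with BH4 was led by transcripts induced by interferon-gamma. Of 22 such genes measured, 22 were at least 1.5-fold higher with BH4 than on the syngraft array and none lower, beside 13.9% higher and 10.6% lower over all genes, and the median log2 difference was 3.11. The untreated allograft also had 22 of 22 higher, against 15.4% of all genes higher and 11.9% lower in that comparison, with a median of 3.26. With BH4, 21 of the 22 genes lay within 1.5-fold of the untreated allograft and none within 1.5-fold of the syngraft, beside 91.8% and 75.5% of all genes. The list's median against the syngraft was 3.17 with ABH4, 2.89 with NIL and 1.81 with CsA. All of these medians share the syngraft array.

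**Figure D2:**
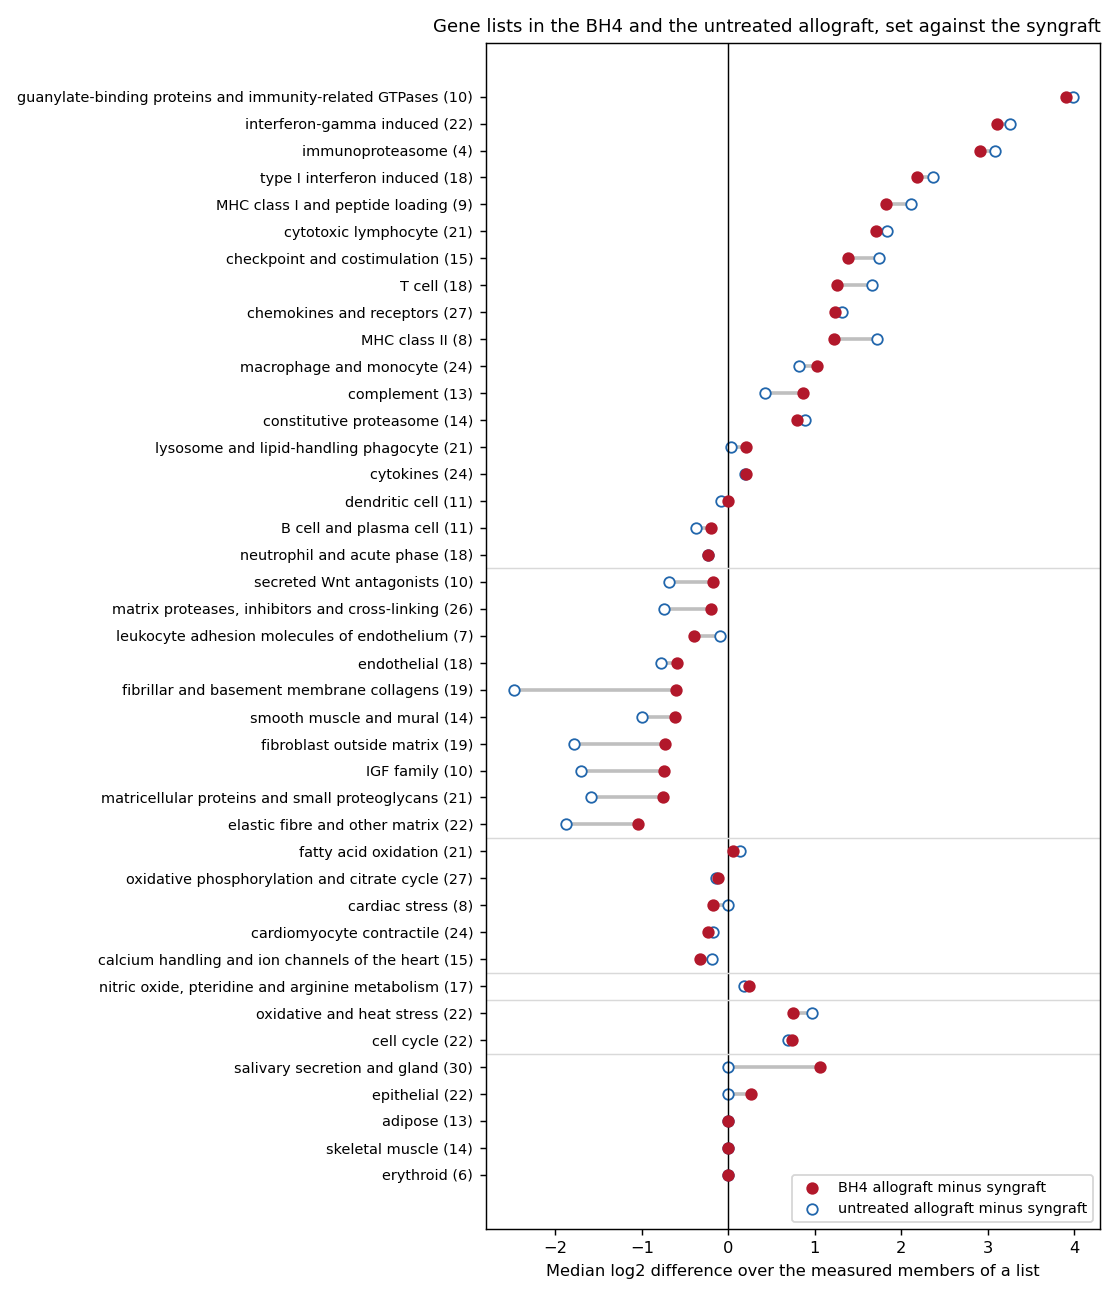
Median log2 difference from the syngraft for each gene list with BH4 and in the untreated allograft, 1 array per group. Interferon and antigen presentation lists lie to the right of 0 for both, the matrix lists lie left of 0 and closer to 0 with BH4, and the salivary list departs from 0 only for BH4, where its median was 1.06 against 0.00 in the untreated allograft.

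The guanylate-binding proteins and immunity-related GTPases, which attack the vacuoles of intracellular parasites and bacteria, had the highest list median. Of 10 measured, 10 were at least 1.5-fold higher with BH4 than on the syngraft array, beside 13.9% of all genes. Their median was 3.91 with BH4 and 3.98 in the untreated allograft. Of these genes, Gbp2, Gbp3 and Gbp7 are also in the interferon-gamma list. Gbp6 (probe set 1438676_at) had a signal of 3104 with BH4, 2934 with ABH4, 2735 with NIL, 1537 with CsA, 3352 in the untreated allograft and 91.4 on the syngraft array, which was 34-fold higher with BH4 than on the syngraft array. All 5 allografts were far above the syngraft, and the CsA array was the lowest of them. Gbp2 (1418240_at) showed the same order at the bottom, with 5503 with BH4, 4804 with ABH4, 4451 with NIL, 2748 with CsA, 5257 in the untreated allograft and 191 on the syngraft array, a 28.8-fold difference between BH4 and syngraft. Irgm2 was 17.5-fold, Igtp 11.4-fold, Gbp7 11.3-fold and Iigp1 6.91-fold higher with BH4. Gbp8 was the 1 member of the list that fell outside 1.5-fold of the untreated allograft, at 635 with BH4, 1001 in the untreated allograft and the floor on the syngraft array.

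Promoter sequences of these genes are shown because members of the list were high together on every allograft array. They are the 250 bases before the RefSeq transcription start in build GRCm38.p6, read 5' to 3' on the gene's strand, for Gbp2 (chr3:142620413-142620662, + strand), Gbp7 (chr3:142530086-142530335, + strand), Igtp (chr11:58199306-58199555, + strand) and Irgm2 (chr11:58214727-58214976, + strand). Capitals mark matches to the interferon-gamma activated site TTCNNNGAA and to GAAANNGAA, a core of the interferon-stimulated response element, each searched on both strands.
Gbp2: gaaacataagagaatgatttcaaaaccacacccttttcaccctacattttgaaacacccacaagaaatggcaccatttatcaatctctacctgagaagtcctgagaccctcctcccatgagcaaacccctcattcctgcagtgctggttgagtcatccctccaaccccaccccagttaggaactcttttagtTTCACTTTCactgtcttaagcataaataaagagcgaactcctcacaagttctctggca
Gbp7: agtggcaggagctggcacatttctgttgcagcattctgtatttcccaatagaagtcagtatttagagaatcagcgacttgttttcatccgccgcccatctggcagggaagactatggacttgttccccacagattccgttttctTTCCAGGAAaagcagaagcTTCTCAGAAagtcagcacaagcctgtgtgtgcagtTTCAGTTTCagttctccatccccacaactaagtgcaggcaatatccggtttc
Igtp: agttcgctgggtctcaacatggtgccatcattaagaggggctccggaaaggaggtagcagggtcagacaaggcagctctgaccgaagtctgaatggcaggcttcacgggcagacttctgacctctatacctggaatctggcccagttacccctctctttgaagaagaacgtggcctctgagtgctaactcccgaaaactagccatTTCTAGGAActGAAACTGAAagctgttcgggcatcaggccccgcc
Irgm2: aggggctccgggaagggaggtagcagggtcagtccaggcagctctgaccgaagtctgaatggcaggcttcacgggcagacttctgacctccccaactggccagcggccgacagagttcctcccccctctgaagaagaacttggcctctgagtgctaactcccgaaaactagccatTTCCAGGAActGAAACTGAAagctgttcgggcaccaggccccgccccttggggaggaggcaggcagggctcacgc

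In Igtp the first motif began 45 and the second 34 bases before the start, and in Irgm2 they began 75 and 64 bases before it. The 2 do not overlap in either promoter and stand in the same order and spacing. The Igtp and Irgm2 sequences also share long stretches of the same letters around these motifs, so they are not independent examples. Gbp7 held 2 matches of the first motif and 1 of the second, and Gbp2 held 1 match of the second, in both genes on the opposite strand. Of the 10 measured GTPases, 7 had a promoter in the table, of which 6 held GAAANNGAA and 3 held TTCNNNGAA. Among all 32851 promoters of the table the shares were 7.13% for GAAANNGAA and 7.02% for TTCNNNGAA, and 0.752% held both. Of 16 interferon-gamma induced genes with a promoter, 6 held TTCNNNGAA and 7 held GAAANNGAA. GAAANNGAA was taken after a longer form had been tried that matched fewer promoters and not that of Cxcl9, so its counts are a description only. A match describes these letters in this window and does not show that a factor binds there.

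Cxcl9 (1418652_at) and Cxcl10, ligands of the T cell chemokine receptor Cxcr3, stood at the level of the untreated allograft. Cxcl9 had 3928 with BH4, 4265 with ABH4, 3712 with NIL, 2498 with CsA, 3938 in the untreated allograft and 159 on the syngraft array, a 24.7-fold difference between BH4 and syngraft. Cxcl10 was 19.1-fold higher with BH4 than on the syngraft array, at 1488 with BH4, 1442 in the untreated allograft and 77.9 on the syngraft array. Cxcl11, the ligand of the same receptor that stands outside this pattern, had 506 with BH4, 924 in the untreated allograft and was at the floor on the syngraft array. The promoter of Cxcl9 (chr5:92328080-92328329, - strand, same source and build) is shown beside those above. It held 1 match of GAAANNGAA, in capitals 175 bases before the start, and none of TTCNNNGAA in this window.
Cxcl9: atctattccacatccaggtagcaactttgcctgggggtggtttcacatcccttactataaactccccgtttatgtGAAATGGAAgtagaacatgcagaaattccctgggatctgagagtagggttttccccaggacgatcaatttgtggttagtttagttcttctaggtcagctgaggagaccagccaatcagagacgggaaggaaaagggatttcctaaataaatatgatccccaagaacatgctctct

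Other interferon-gamma targets with large differences were Cd274, the ligand of the checkpoint receptor Pdcd1, and Ubd, a ubiquitin-like modifier. Cd274 had 1512 with BH4, 1882 in the untreated allograft and 56.4 on the syngraft array, 26.8-fold higher with BH4 than on the syngraft array. Ubd was 19.5-fold and the cytokine signalling inhibitor Socs1 at least 11.8-fold higher with BH4. The smallest differences in the list were those of Ciita, the master regulator of class II genes, at 1.69-fold, and Nos2, at least 1.57-fold.

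Antigen presentation remained high as a whole. All 9 measured genes of MHC class I and peptide loading were at least 1.5-fold higher with BH4 than on the syngraft array (median 1.83, against 2.11 in the untreated allograft), and so were 8 of 8 class II genes (median 1.22, against 1.72) and 4 of 4 immunoproteasome genes (median 2.91, against 3.09). Every one of these genes lay within 1.5-fold of the untreated allograft, as did 91.8% of all genes, while 13.9% of all genes were at least 1.5-fold higher with BH4 than on the syngraft array. Psmb8, Psmb9, Psmb10, Tap1, Tap2 and Ciita are also in the interferon-gamma list, so these counts are not separate from that one. The class I heavy chain H2-K1 had 6931 with BH4, 6938 in the untreated allograft and 429 on the syngraft array, which is 16.2-fold. H2-D1, read at 18.4-fold, has another probe set that differs in sign, and class I genes are near-identical to each other and differ between strains, so these 2 values may mix genes or alleles. Psmb9, a catalytic subunit of the immunoproteasome, was 9.86-fold higher, and the peptide transporter Tap1 10.9-fold. Cd74, the invariant chain of class II, had 5016 with BH4, 5807 in the untreated allograft and 1601 on the syngraft array. H2-Ab1 and H2-Eb1 had lower values with BH4 than in the untreated allograft, at 1060 against 1549 and at 2278 against 3384. The constitutive proteasome moved less, with 11 of 14 subunits at least 1.5-fold higher with BH4 than on the syngraft array and a median of 0.79, against 0.89 in the untreated allograft.

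Genes induced by type I interferon were higher in 17 of 18 with BH4 (median 2.18) and in 18 of 18 in the untreated allograft (median 2.37). The shares of all genes were 13.9% and 15.4%. Bst2, which tethers budding virus, was 10.3-fold and Ifit2, which binds viral RNA, 8.50-fold higher with BH4 than on the syngraft array. Of the list, 3 members were at least 1.5-fold below the untreated allograft, beside 3.36% of all genes. Among them was Mx1, a GTPase against influenza virus, at 103 with BH4, 181 in the untreated allograft and 58.2 on the syngraft array. Its relative Mx2 was at the floor with BH4 and on the syngraft array, and had 76.6 in the untreated allograft.

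Lymphocyte transcripts were high with BH4 and mostly somewhat below the untreated allograft. Of 21 cytotoxic lymphocyte genes, 14 were at least 1.5-fold higher with BH4 than on the syngraft array (median 1.71) and 15 in the untreated allograft (median 1.84). The shares of all genes were 13.9% and 15.4%. BH4 was at least 1.5-fold below the untreated allograft in 6 of the 21 and above it in none. Over all genes, 3.36% were lower and 4.89% higher between those arrays. The list's median of BH4 minus the untreated allograft was -0.39, beside 0.00 over all genes. The median against the syngraft was 2.15 with ABH4, 2.18 with NIL and 0.15 with CsA. Gzmb (1419060_at), the protease of cytotoxic granules, had 2973 with BH4, 3703 with ABH4, 3358 with NIL, 346 with CsA and 3888 in the untreated allograft, and was at the floor on the syngraft array, at least 85.5-fold lower there than with BH4. Gzma, another granzyme, had 761 with BH4, 1353 in the untreated allograft and 59.8 on the syngraft array. Ifng (1425947_at) itself had 400.0 with BH4, 738 with ABH4, 484 with NIL, 102 with CsA and 586 in the untreated allograft, and was at the floor on the syngraft array, a difference of at least 11.5-fold between BH4 and syngraft. BH4 was the lowest of the 4 allografts other than CsA for Gzmb and for Ifng, by less than 1.5-fold from the untreated allograft in both.

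Of 18 T cell genes, 14 were at least 1.5-fold higher with BH4 (median 1.26) and 13 in the untreated allograft (median 1.66). The counts in this paragraph are read beside 13.9% of all genes higher with BH4 and 15.4% in the untreated allograft. The subunits of the T cell receptor complex Cd3g (at least 11.2-fold), Cd3d (at least 9.86-fold) and Cd3e (at least 7.44-fold) were higher with BH4, with the syngraft at the floor. Cd8a, the coreceptor of cytotoxic T cells, had 227 with BH4 and 173 in the untreated allograft and was at the floor on the syngraft array, whereas Cd4 was at the floor on all 3. Checkpoint and costimulation genes were higher in 11 of 15 with BH4 (median 1.39) and in 11 in the untreated allograft (median 1.74). The inhibitory receptors Pdcd1 (164 with BH4, 168 in the untreated allograft), Havcr2 (149 and 147) and Lag3 (137 and 158) were at the floor on the syngraft array. With the floor at the 50th percentile the BH4 medians of these lists dropped to 0.48 for cytotoxic, 0.40 for T cell and 0.71 for checkpoint genes, since many of their members are dim. B cell and plasma cell genes had 1 of 11 higher and 1 lower with BH4, with a median of -0.20. Both counts are near the 13.9% higher and 10.6% lower over all genes. In RNA of whole tissue, fewer cells of a type and less RNA per cell cannot be told apart, here and for each cell type below.

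**Figure D3:**
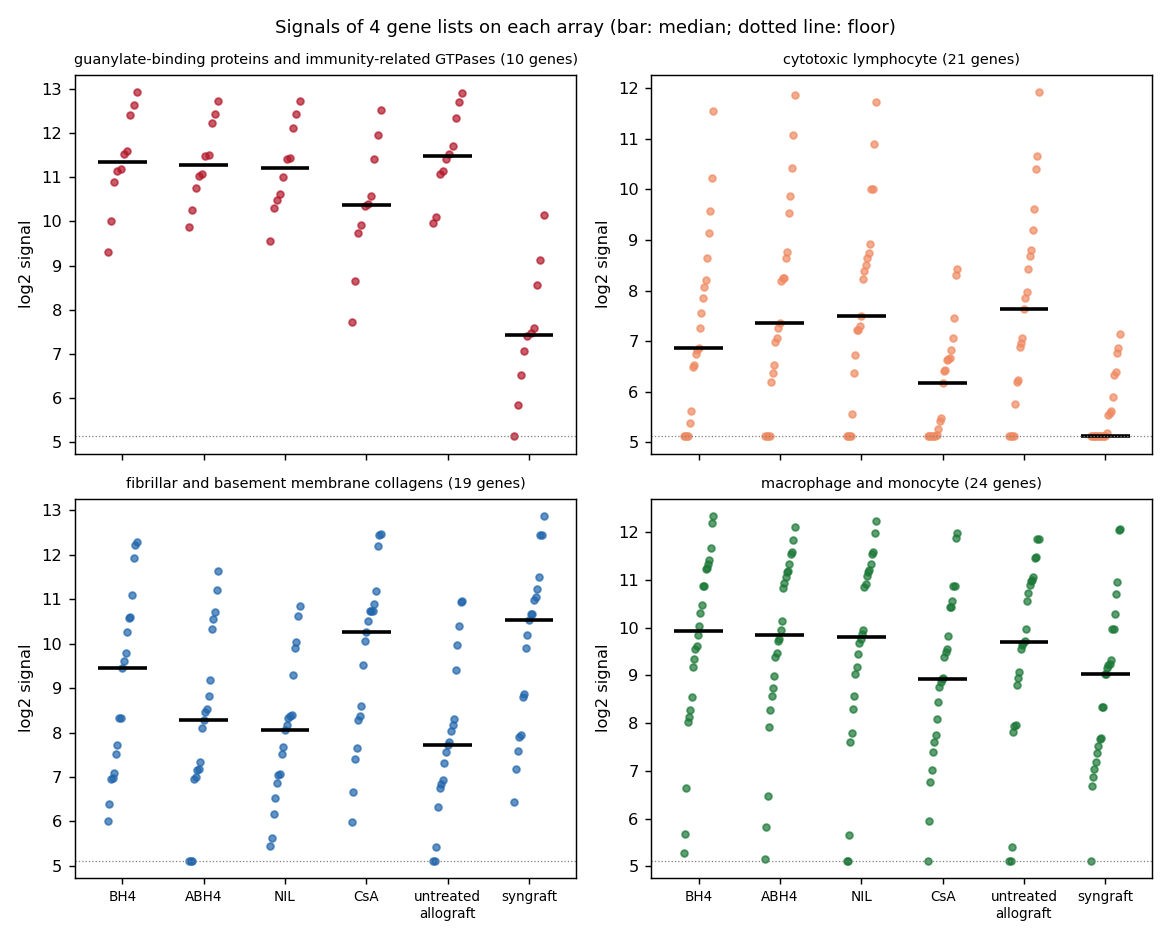
Log2 signal of each measured member of 4 gene lists on the 6 arrays, 1 point per gene, with the list's median as a bar and the floor as a dotted line. The GTPases are high on all 5 allograft arrays and low on the syngraft array, the cytotoxic genes are lower with CsA than on the other allograft arrays, and the collagens are higher with BH4 and CsA than with ABH4, NIL or in the untreated allograft, and the macrophage genes are lower with CsA and on the syngraft array than on the other 4.

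Of 27 chemokines and receptors, 15 were at least 1.5-fold higher and 3 lower with BH4 (median 1.23), against 17 higher and 3 lower in the untreated allograft (median 1.32). Over all genes, 13.9% were higher and 10.6% lower with BH4, and 15.4% and 11.9% in the untreated allograft. Ccl5, made by activated T cells, was 8.49-fold and the monocyte attractant Ccl7 5.73-fold higher with BH4 than on the syngraft array. Ccl3, an inflammatory chemokine of macrophages and T cells, lay between the other 2 arrays, at 216 with BH4, 538 in the untreated allograft and 35.5 on the syngraft array. Cxcl12, a chemokine of stromal cells, was 3.03-fold lower with BH4, at 366 against 1108 on the syngraft array, with 327 in the untreated allograft. Of 24 cytokines, 8 were at least 1.5-fold higher with BH4 than on the syngraft array and 3 lower. The lower count is near its share of all genes. Of the 24, 6 were at least 1.5-fold below the untreated allograft, beside 3.36% of all genes. Il6 had 176 with BH4, 434 in the untreated allograft and 81.7 on the syngraft array, and Il1b had 274 with BH4, 486 in the untreated allograft and 219 on the syngraft array. Tnf had 123 with BH4, 192 in the untreated allograft and 72.4 on the syngraft array. All 3 of these inflammatory cytokines lay between the untreated allograft and the syngraft, at levels where no replicate gives their spread.

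The macrophage and monocyte list was mixed, with 14 of 24 members at least 1.5-fold higher and 1 lower with BH4 than on the syngraft array (median 1.02), against 14 higher and 3 lower in the untreated allograft (median 0.82). The counts in this paragraph are read beside 13.9% higher and 10.6% lower over all genes with BH4. In the untreated allograft these shares were 15.4% and 11.9%. Msr1, a scavenger receptor, was 6.33-fold, the integrin chain Itgb2 5.75-fold and the immunoglobulin receptor Fcgr3 3.92-fold higher with BH4. Marco, another scavenger receptor, had 100.1 with BH4 and 117 on the syngraft array and was at the floor in the untreated allograft. Mrc1, the mannose receptor of resident macrophages, had 373 with BH4, 227 in the untreated allograft and 522 on the syngraft array. Cx3cr1, the fractalkine receptor, was low in both allografts, at 38.6 with BH4 and 42.1 untreated, against 166 on the syngraft array. Among 21 lysosomal and lipid-handling phagocyte genes, 8 were higher and 1 lower with BH4 (median 0.21), and 7 were higher and 5 lower in the untreated allograft (median 0.03). Gpnmb (1448303_at), a lysosomal membrane protein of lipid-laden macrophages, was above both comparison arrays. It had 535 with BH4, 108 with ABH4, 153 with NIL, 332 with CsA, 43.3 in the untreated allograft and 148 on the syngraft array, so that BH4 was 3.61-fold above the syngraft and 12.3-fold above the untreated allograft. Ctsk, a collagen-degrading cathepsin, had 359 with BH4, 59.7 in the untreated allograft and 392 on the syngraft array. Apoe was 2.78-fold lower with BH4 than on the syngraft array, at 589 against 1635, with 300.0 in the untreated allograft. Complement genes were higher in 8 of 13 with BH4 (median 0.86) and in 6 in the untreated allograft (median 0.42), led by factor B, Cfb, at 7.57-fold. Of 18 neutrophil and acute phase genes, 3 were higher and 7 lower with BH4, beside 13.9% higher and 10.6% lower over all genes. The most moved member, Lcn2, was 2.89-fold higher with BH4 than on the syngraft array. It had 956 with BH4, 492 in the untreated allograft and 331 on the syngraft array. S100a9, a calcium-binding protein of neutrophils, had 177 with BH4, 205 in the untreated allograft and 462 on the syngraft array.

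In the matrix lists the BH4 array departed from the untreated allograft and lay toward the syngraft. Of 19 collagen genes, none was at least 1.5-fold higher and 11 were lower with BH4 than on the syngraft array (median -0.60), against 17 lower in the untreated allograft (median -2.48). BH4 was at least 1.5-fold above the untreated allograft in 14 of the 19 and below it in none, and within 1.5-fold of the syngraft in 8. Over all genes, 4.89% were at least 1.5-fold above the untreated allograft with BH4 and 75.5% within 1.5-fold of the syngraft. Collagens were thus less often within 1.5-fold of the syngraft than genes at large. Against the syngraft, 10.6% of all genes were lower and 13.9% higher with BH4, and 11.9% lower and 15.4% higher in the untreated allograft. The matrix, fibroblast, IGF and Wnt counts below are read beside these shares. On the values as deposited the collagen median with BH4 was -0.78 and after quantile normalization -0.76. The list's median against the same syngraft array was -1.83 with ABH4, -2.26 with NIL and -0.23 with CsA, so CsA was nearer to the syngraft than BH4 was.

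Col1a1 (1423669_at) and Col1a2, the chains of type I collagen, showed this order. Col1a1 had 3877 with BH4, 1513 with ABH4, 626 with NIL, 4708 with CsA, 680 in the untreated allograft and 5537 on the syngraft array, so that BH4 was 1.43-fold below the syngraft and 5.70-fold above the untreated allograft. Col1a2 had 4960 with BH4, 1003 in the untreated allograft and 7506 on the syngraft array. Col3a1, the chain of type III collagen, had 4792 with BH4, 1994 untreated and 5542 on the syngraft array. All 3 of these fibrillar chains were brighter with BH4 than without treatment. Col6a3, of beaded filaments, had 1222 with BH4, 264 untreated and 1616 on the syngraft array. The basement membrane chain Col4a1 differed little between any of the 3, at 2181 with BH4, 1952 in the untreated allograft and 2884 on the syngraft array. Col8a1, a short-chain collagen of vessel walls, stayed low with BH4, at 210 with BH4, 161 with ABH4, 117 with NIL, 1073 with CsA, 108 in the untreated allograft and 1482 on the syngraft array, 7.07-fold lower with BH4 than on the syngraft array. Col14a1 and Col15a1, collagens with interrupted triple helices, were 3.30-fold and 3.02-fold lower.

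The promoter of Col1a2 (chr6:4505368-4505617, + strand, 250 bases before the RefSeq start in GRCm38.p6) is shown because type I collagen was among the brightest matrix transcripts that differed between BH4 and the untreated allograft. Capitals mark its 1 CCAAT box, 109 bases before the start, searched on both strands.
Col1a2: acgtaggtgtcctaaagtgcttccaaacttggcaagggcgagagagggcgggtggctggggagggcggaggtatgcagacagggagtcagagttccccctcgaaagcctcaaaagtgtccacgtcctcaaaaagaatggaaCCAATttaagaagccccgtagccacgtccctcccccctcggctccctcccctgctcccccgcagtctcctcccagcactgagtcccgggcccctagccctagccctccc

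Of 15 collagen genes with a promoter in the table, none held TTCNNNGAA or GAAANNGAA in this window and 8 held CCAAT. This last motif was also present in 9 of the 16 interferon-gamma induced genes and 2 of the 7 GTPases, where it is not set in capitals above, and in 33.8% of all promoters.

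**Figure D4:**
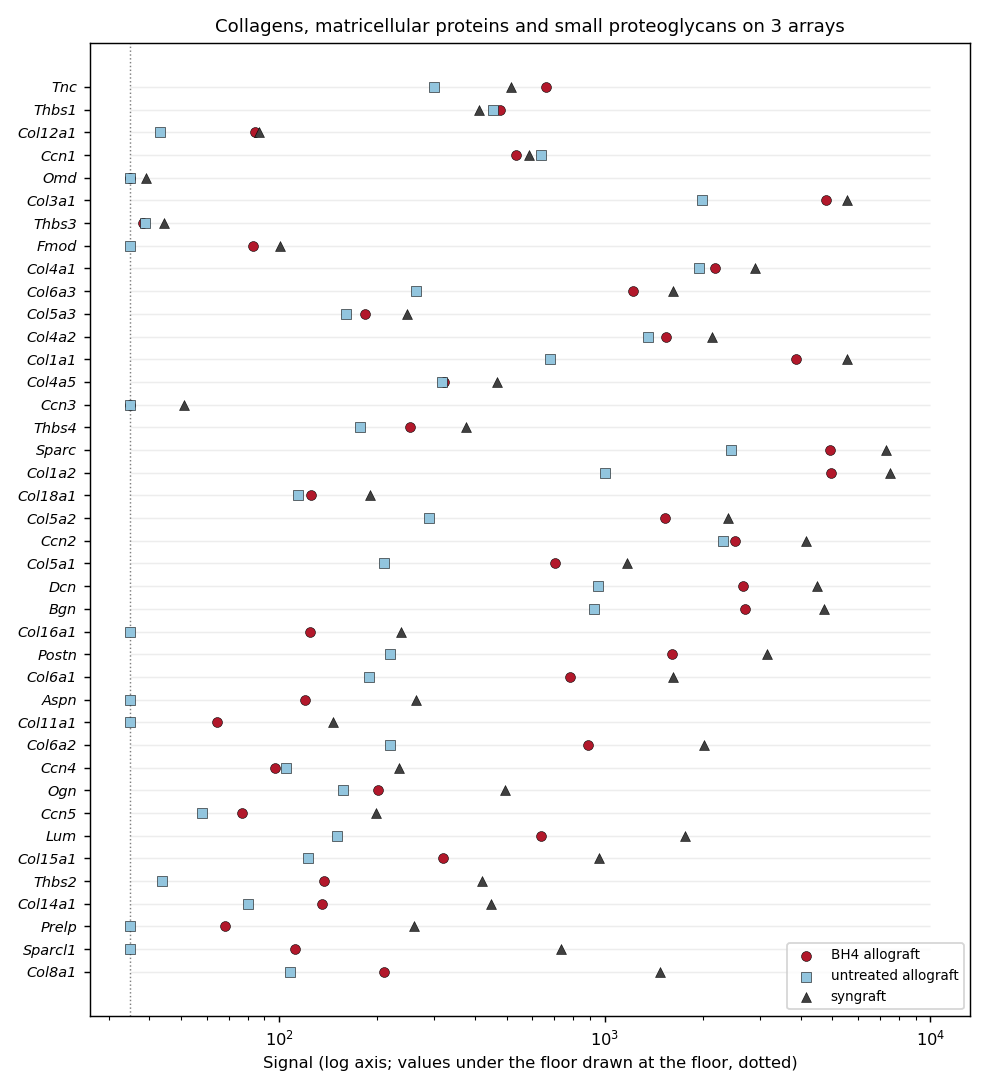
Signal (log axis) of collagens, matricellular proteins and small proteoglycans on the BH4, untreated allograft and syngraft arrays, 1 point per array, ordered by the difference between BH4 and syngraft. For Col1a1 and Postn the BH4 point lies well to the right of the untreated allograft, for Col4a1 and Col4a2 it lies close to the untreated allograft, and for Col8a1 and Sparcl1 the syngraft point lies far to the right of both.

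Outside the collagens the same lists split gene by gene. Of 21 matricellular proteins and small proteoglycans, 12 were at least 1.5-fold lower and none higher with BH4 (median -0.75), against 16 lower in the untreated allograft (median -1.58). Of 22 elastic fibre and other matrix genes, 17 were lower with BH4 (median -1.05) and 20 in the untreated allograft (median -1.88). Postn (1423606_at), a matricellular protein of activated fibroblasts, had 1612 with BH4, 506 with ABH4, 231 with NIL, 3019 with CsA, 219 in the untreated allograft and 3142 on the syngraft array. It was 1.95-fold below the syngraft and 7.36-fold above the untreated allograft with BH4. Fn1, fibronectin, lay near the syngraft, at 2487 with BH4, 912 in the untreated allograft and 2779 on the syngraft array. Tnc, tenascin C, had 659 with BH4, 298 untreated and 514 on the syngraft array, and was one of 2 members of the matricellular list with a higher signal with BH4 than on the syngraft array. Genes that remained low included Sparcl1, an adhesion-modulating relative of Sparc, at 112 with BH4, 736 on the syngraft array and the floor in the untreated allograft. Mgp, the inhibitor of calcification, had 1841 with BH4, 318 untreated and 6774 on the syngraft array. Mfap4, a protein of elastic fibres, was at the floor with BH4 and in the untreated allograft and had 305 on the syngraft array, at least 8.78-fold lower with BH4. Fbln5 and Ltbp4, which assemble elastic fibres, were 4.67-fold and 4.63-fold lower with BH4 than on the syngraft array.

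Of 26 matrix proteases, inhibitors and cross-linking enzymes, 11 were lower and 4 higher with BH4 (median -0.20), against 17 lower and 2 higher in the untreated allograft (median -0.74). BH4 was at least 1.5-fold above the untreated allograft in 14 of the 26 and below it in none, beside 4.89% and 3.36% of all genes. Mmp23, a membrane protease, lay near the syngraft at 222 with BH4, 39.0 in the untreated allograft and 242 on the syngraft array. Lox, the enzyme that cross-links collagen and elastin, had 650 with BH4, 246 untreated and 1461 on the syngraft array. Adamts1, an aggrecan-cleaving protease, was 3.02-fold higher with BH4, at 815 against 270 on the syngraft array, and had 722 in the untreated allograft. Mmp8, the collagenase of neutrophils, and Mmp12, the macrophage elastase, were 2.09-fold and 1.86-fold higher with BH4 than on the syngraft array, while both in the untreated allograft were within 1.5-fold of the syngraft.

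Of 19 fibroblast genes outside the matrix, 12 were lower and 1 higher with BH4 (median -0.74), against 14 lower in the untreated allograft (median -1.79). Pdgfra, the receptor that marks cardiac fibroblasts, had 186 with BH4 and 310.0 on the syngraft array and was at the floor in the untreated allograft. Pi16 (1453839_a_at), of adventitial fibroblasts, did not share that pattern. It had 36.8 with BH4, 150 with CsA and 520 on the syngraft array, was at 38.2 in the untreated allograft and at the floor with ABH4 and NIL, and was 14.1-fold lower with BH4 than on the syngraft array. Abca8a, a lipid transporter, was 7.68-fold lower. In the IGF family 5 of 10 genes were lower with BH4 (median -0.74) and 7 in the untreated allograft (median -1.71). Igfbp4 had 879 with BH4, 190 untreated and 1656 on the syngraft array, whereas Igf1, the growth factor, was 4.20-fold and Igf2 4.60-fold lower with BH4 than on the syngraft array. Of 10 secreted Wnt antagonists, 3 were lower with BH4. Sfrp1, a decoy for Wnt ligands, had 252 with BH4, 44.8 in the untreated allograft and 349 on the syngraft array, with another probe set of opposite sign between BH4 and syngraft, and Frzb was 4.59-fold lower. The BH4 array also carried the salivary gland transcripts described below, and their part in the matrix and macrophage values was not tested.

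Vessel genes were lower with BH4 and in the untreated allograft than on the syngraft array. Of 18 endothelial genes, 10 were at least 1.5-fold lower and none higher with BH4 (median -0.59), and 10 were lower in the untreated allograft (median -0.77), beside 10.6% of all genes lower with BH4 and 11.9% in the untreated allograft. Of the 18, 17 lay within 1.5-fold between BH4 and the untreated allograft, a share near the 91.8% of all genes. Aplnr (1438651_a_at), the apelin receptor, had the widest difference in the lower direction among the genes named for a measured difference, at 49.4 with BH4, 46.6 with ABH4, 470 with CsA, 54.8 in the untreated allograft and 749 on the syngraft array, 15.1-fold lower with BH4, and it was at the floor with NIL. Vwf, the clotting factor carrier of endothelium, was 2.84-fold, Tek, the angiopoietin receptor, 2.71-fold and Kdr, the main VEGF receptor, 2.33-fold lower. Vcam1, which captures leukocytes, was 3.03-fold higher with BH4 than on the syngraft array and had 724 with BH4 against 445 in the untreated allograft. Of 14 smooth muscle genes, 7 were lower and 1 higher with BH4 (median -0.62), and 7 lower and 1 higher in the untreated allograft (median -1.0). Tagln had 110 with BH4, 57.0 untreated and 416 on the syngraft array. Acta2, smooth muscle actin, had 1848 with BH4, 1891 untreated and 1812 on the syngraft array.

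Most heart muscle genes lay within 1.5-fold of the syngraft, as most genes did. Of 24 contractile genes, 4 were at least 1.5-fold lower and none higher with BH4 (median -0.23), against 2 lower in the untreated allograft (median -0.17), and 20 lay within 1.5-fold of the syngraft. Over all genes, 10.6% were lower with BH4 and 75.5% within 1.5-fold of the syngraft. Nppa, atrial natriuretic peptide, had 8370 with BH4, 8594 in the untreated allograft and 9484 on the syngraft array, and Nppb and Ankrd1, 2 other markers of stretched muscle, were 1.13-fold lower and 1.05-fold higher with BH4 than on the syngraft array. Exceptions were Acta1, the skeletal actin of fetal heart, at 1612 with BH4, 1390 untreated and 5742 on the syngraft array, and Ttn, the giant spring protein titin, at 3288 with BH4, 3421 untreated and 6582 on the syngraft array. Ckm, the muscle creatine kinase, had 739 with BH4, 460 untreated and 1676 on the syngraft array. Of 27 genes for the respiratory chain and citrate cycle enzymes, 26 lay within 1.5-fold of the syngraft with BH4 (median -0.11), against the same 75.5%. Fatty acid oxidation had 3 of 21 higher, near the 13.9% of all genes, and none lower, with a median of 0.05 that was -0.12 without rescaling and also after quantile normalization. Its largest member was Pdk4, the kinase that shuts down pyruvate oxidation, at 1183 with BH4, 1398 untreated and 205 on the syngraft array, 5.78-fold higher with BH4.

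In the pathway of BH4 itself and of arginine, 5 of 17 members were higher by 1.5-fold or more and 2 lower with BH4 (median 0.23), against 6 higher and 2 lower in the untreated allograft (median 0.19), beside 13.9% higher and 10.6% lower over all genes with BH4. All 17 lay within 1.5-fold of the untreated allograft, as did 91.8% of all genes. Gch1 (1420499_at), which commits GTP to BH4 synthesis, had 256 with BH4, 263 with ABH4, 249 with NIL, 185 with CsA, 279 in the untreated allograft and 99.2 on the syngraft array, 2.58-fold higher with BH4. Spr and Pts, which complete the synthesis, had 143 and 101 with BH4 against 148 and 110 on the syngraft array. Of these 3 enzymes, Gch1 alone was more than 1.5-fold away from the syngraft. Nos2 (1420393_at), the inducible synthase, was dim throughout, with 54.7 with BH4, 61.3 with ABH4, 88.0 with NIL, 73.2 in the untreated allograft and the floor with CsA and on the syngraft array, at least 1.57-fold higher with BH4. Nos3, the endothelial synthase, had 190 with BH4, 221 untreated and 246 on the syngraft array. Arg1, which competes for the same arginine, had 1045 with BH4 and 864 in the untreated allograft and was at the floor on the syngraft array, at least 30-fold higher with BH4. Xdh, the xanthine dehydrogenase of purine breakdown, was 25.7-fold higher, at 1002 with BH4, 908 untreated and 39.0 on the syngraft array. Ddah2, of the dimethylarginine hydrolase family, was 3.41-fold lower, at 130 with BH4 against 441 on the syngraft array.

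Salivary gland transcripts formed a set of their own that was high on the BH4 array. Of 30 salivary secretion genes measured, 16 were at least 1.5-fold higher and 1 lower with BH4 than on the syngraft array (median 1.06), against none higher and 3 lower in the untreated allograft (median 0.00). Over all genes, 13.9% were higher and 10.6% lower with BH4, and 15.4% and 11.9% in the untreated allograft. The list's median was 0.00 with ABH4, NIL and CsA as well. The BH4 median depended on the treatment of dim genes, at 0.12 with the floor at the 50th percentile and 2.42 over members above the floor on at least 1 of the 2 arrays. Bpifa2 (1419348_at), the parotid secretory protein, had 5806 with BH4, 56.2 with NIL and 40.7 on the syngraft array and was at the floor with ABH4, CsA and in the untreated allograft, 142-fold higher with BH4 than on the syngraft array. This was the widest measured difference of any list member. Smr3a, another secretory protein of the gland, had 3169 with BH4 and was at the floor on the other 5 arrays, at least 91.1-fold lower there. Amy1, salivary amylase, had 2011 with BH4 and was at the floor elsewhere, at least 57.8-fold higher with BH4 than on the syngraft array, and its probes may also read the pancreatic amylase genes. The cystatin Cst10 was at least 28.8-fold, the secreted carbonic anhydrase Car6 at least 12.8-fold, 2310057J18Rik 32.6-fold and the whey-acidic-protein family member Wfdc18 11.9-fold higher with BH4 than on the syngraft array. Pip, a prolactin-induced secretory protein, was at least 34.2-fold higher, with another probe set that differs in sign. Lower down came Ltf, lactoferrin, at least 7.87-fold, Fxyd3, an ion pump regulator, at least 5.90-fold, Wfdc12 5.47-fold, Dcpp3 5.37-fold, the kallikrein Klk1 and lactoperoxidase, Lpo, at least 3.96-fold each, and Pigr, the transporter of IgA, at least 2.84-fold. Members of the Klk and Dcpp families are near-identical to each other, and their probe sets may not separate them. The NIL array had a lower signal for some of them, such as Wfdc18 at 252 and Ltf at 133, against 1230 and 274 with BH4. Other members did not stand apart. Egf had 61.3 with BH4 and 63.1 on the syngraft array and Bhlha15 52.3 with BH4 and 55.7 on the syngraft array.

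Of 22 epithelial genes, 8 were higher and none lower with BH4 (median 0.26), beside 13.9% and 10.6% of all genes. In the untreated allograft 3 were higher, near the 15.4% of all genes. Krt18 and Krt8, the keratins of simple epithelia, had 263 and 276 with BH4, 129 and 68.5 in the untreated allograft, and on the syngraft array Krt18 was at the floor and Krt8 had 100.2. Cldn3, a tight junction protein, had 199 with BH4 and 36.0 on the syngraft array, 5.52-fold higher. Kcnn4, a potassium channel also found in T cells, was as high in the untreated allograft, at 211 with BH4, 197 untreated and 48.2 on the syngraft array. Krt5, Cdh1 and Krt19 were at the floor with BH4 and on the syngraft array. Genes at least 2-fold above every other array numbered 26 with BH4, of which 15 were in the salivary list and 1 in the epithelial list, against 2 with ABH4, 3 with NIL, 5 with CsA, 2 in the untreated allograft and 49 on the syngraft array. Among the 26, outside both lists, were Dnase1, a secreted nuclease, and Chia1, a chitinase, at 2763 and 1815 with BH4 and at the floor on the syngraft array, that is, at least 79.5-fold higher for Dnase1 and at least 52.2-fold for Chia1. Without the genes of the salivary and epithelial lists the counts of genes at least 2-fold away from the syngraft were 741 higher and 430 lower, and without the 26 genes they were 734 and 431, a pair of counts added after the data were seen. The source of these transcripts was not tested.

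**Figure D5:**
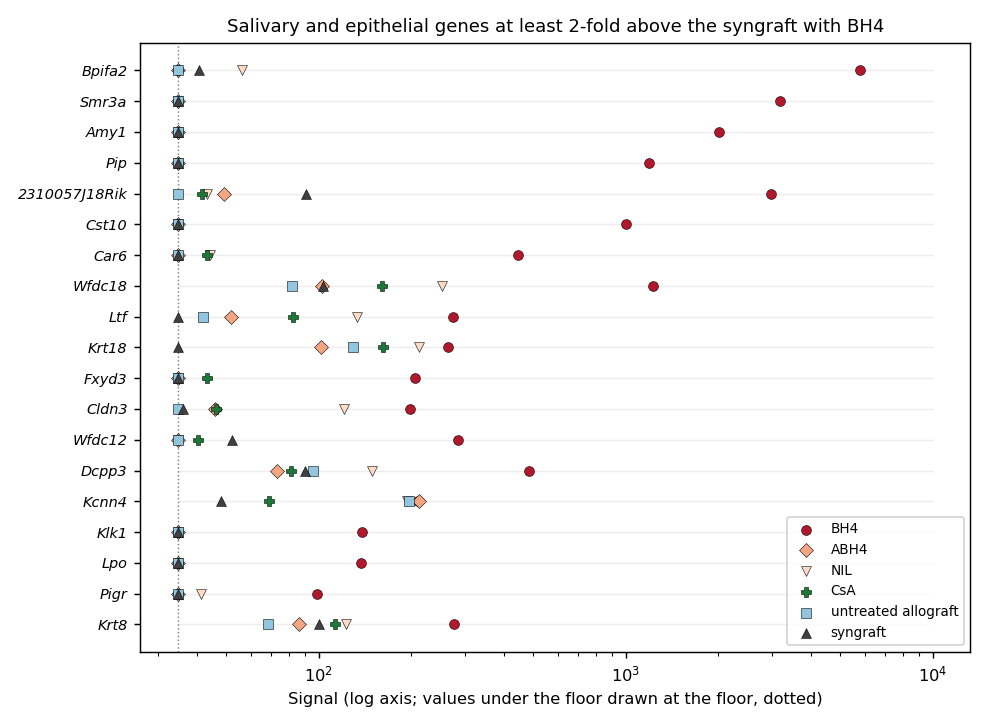
Signal (log axis) of the 19 salivary and epithelial genes at least 2-fold higher with BH4 than on the syngraft array, on all 6 arrays, with the floor as a dotted line. Bpifa2, at 5806 with BH4, and Smr3a and Amy1, at 3169 and 2011, stand near or at the floor on the other 5 arrays, while Krt18 and Kcnn4 are also above the syngraft on the other allograft arrays (the Kcnn4 point of BH4 lies under those of NIL, ABH4 and the untreated allograft).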

How the data were processed

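Total RNA of 6 mouse cardiac grafts was measured on Affymetrix arrays of a single design, 1 array for each group, and the groups were taken from the labels. The values deposited by the authors were signal intensities on a linear scale for 22690 probe sets per array, with a mean of 200 after trimming 2% at each end. How the scanner signals were summarised and corrected for background is not given in the sources used here.

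Each array was set to a common median over 22626 probe sets, leaving out controls, signals below the 30th percentile were raised to it, and log2 was taken, with Python 3.11.15, pandas 2.3.3 and numpy 2.4.6. Symbols came from GEO's platform annotation, updated through Entrez identifiers to RefSeq (GRCm38.p6). Of the probe sets, 20380 named 1 gene, 691 several and 1555 none. The brightest probe set by mean log2 among those naming 1 gene stood for a gene. The annotation names no genome build, so coordinates are those of the RefSeq promoters only. Promoters were searched for a 9-letter core of the interferon-stimulated response element after a form longer by 1 base had been tried, which matched fewer promoters and not that of Cxcl9. The calculation of differences was tested on simulated data.

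Genes were described by differences, and 43 lists by counts past 1.5-fold and medians. Of 800 list members, counted once per list, 710 were measured and the others were not analysed here. Members, lists and rules were chosen with earlier results of these data known. Named outside the glandular lists were the 8 largest measured differences and the 4 largest bounds in each direction, the 2 to 4 most moved members of a list, the 6 widest genes in each direction near the syngraft or the untreated allograft, the 6 furthest from both, and Nos2, Gch1, Ifng, Gzmb, Cxcl9, Nppa, Myh6, Postn, Col1a1 and Gpnmb, and of the glandular lists every member at least 2-fold higher with BH4. Other list members were named after their values were seen, as examples of their list. Alternatives changed the scaling, the floor, the gene summary, the filter on dim genes and the glandular genes.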

Additional observations from a re-analysis of the deposited data

How the results depend on the processing

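With 1 array per group no array could be left out. No paired analysis was possible because every group holds 1 array and the result comes from no test. Of the genes at least 2-fold higher with BH4 than on the syngraft array, 760 by the values reported, there were 1229 with the floor at the 10th percentile and 1211 when probe sets were counted in place of genes. The 431 lower became 656 on the deposited values without rescaling, 1184 with the floor at the 10th percentile, 208 with it at the 50th and 732 as probe sets. At 3-fold, the 300 higher became 589 with the floor at the 10th percentile, and the 78 lower became 519 at the 10th, 45 at the 50th and 138 as probe sets. A lower floor lets dim probe sets pass, and a higher one removes them. The BH4 median of the cytotoxic list was 0.48 with the floor at the 50th percentile, that of the T cell list 2.35 at the 10th and 0.40 at the 50th, and that of the checkpoint list 0.71 at the 50th. The salivary median was 1.79 at the 10th, 0.12 at the 50th and 2.42 over members above the floor on at least 1 of the 2 arrays, the epithelial median 1.02 at the 10th, and the skeletal muscle median -1.32 over members above the floor on at least 1 array. Of 43 list medians, 43 stayed within 1.5-fold of the reported value on the deposited values, after quantile normalization and with the mean over a gene's probe sets, 40 with the floor at the 10th percentile, 39 at the 50th and 41 without genes at the floor on both arrays. Single gene values moved as well. Of 208 genes named by the rules given above, all 208 stayed within 1.5-fold of the reported value under either change of scaling. Genes quoted as further examples of a list were checked only where they fall in this set. With the floor at the 50th percentile 147 stayed and 61 moved further. At the 10th percentile 179 stayed and 28 moved, and 189 stayed and 19 moved when a gene's probe sets were averaged. A further value reversed: Pip was -0.42 with the floor at the 10th percentile, where another of its probe sets is the brighter by mean log2. Dim genes are limited by the floor, under which signals have no order, and the number of arrays limits all values.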

Other observations

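Proliferation and stress genes were higher in the BH4 graft than in the syngraft. Of 22 cell cycle genes, 13 were at least 1.5-fold higher and none lower with BH4 (median 0.74), beside 13.9% higher over all genes, against 12 higher in the untreated allograft (median 0.69), and the median was 0.96 with ABH4, 0.73 with NIL and 0.12 with CsA. Mcm2, a subunit of the replicative helicase, had 307 with BH4, 276 in the untreated allograft and 89.7 on the syngraft array. Cdk1, the kinase of mitotic entry, had 227 with BH4, 138 untreated and 137 on the syngraft array. Of 22 oxidative and heat stress genes, 13 were higher and 1 lower with BH4 (median 0.75), against 13 and 2 in the untreated allograft (median 0.97). Over all genes, 13.9% were higher and 10.6% lower with BH4. Gclm, of glutathione synthesis, was 7.81-fold and Srxn1, which repairs peroxiredoxins, 4.64-fold higher with BH4 than on the syngraft array. The metallothioneins Mt2 and Mt1 were 4.36-fold and 3.21-fold higher. Gpx3, the secreted glutathione peroxidase, was the 1 lower member, at 669 with BH4, 411 with ABH4, 276 with NIL, 841 with CsA, 726 in the untreated allograft and 5527 on the syngraft array.

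The syngraft array stood apart from all 5 allografts in 49 genes at least 2-fold higher and 164 at least 2-fold lower than on every other array. Baiap2l1, a membrane-bending adaptor, had 130 with BH4, 123 with ABH4, 137 with NIL, 117 with CsA, 141 in the untreated allograft and 1743 on the syngraft array, so that BH4 was 13.4-fold below the syngraft and the other allografts, CsA included, stood beside it. Rbp7, a retinol-binding protein, was at the floor with BH4 and had 302 on the syngraft array. Pmfbp1 was at the floor with BH4 and had 51.9 in the untreated allograft and 222 on the syngraft array. The donor strains of the allografts and the syngraft were not given, and strain cannot be told apart from the graft type in these genes.

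Outside the salivary and epithelial lists, 28 genes were at least 2-fold above both the syngraft and the untreated allograft with BH4 and 16 at least 2-fold below both. Besides Dnase1, Chia1 and Gpnmb, the furthest above both were Wdr46, at 129 with BH4 and the floor on both other arrays, Pglyrp1, a peptidoglycan-binding protein, at 139 with BH4 against 39.4 on the syngraft array, and Prp2, at 114 with BH4 and the floor on both. All of these except Gpnmb were among the 26 genes at least 2-fold above every other array with BH4, of which 15 were in the salivary list. Whether they share the source of the salivary transcripts was not tested. Below both were Asb5, at 46.6 with BH4, 122 in the untreated allograft and 126 on the syngraft array, Kif23, a mitotic kinesin, at 40.4 with BH4, 99.7 untreated and 97.6 on the syngraft array, and 1700088E04Rik, at 36.8 with BH4, 92.1 untreated and 111 on the syngraft array, while Med17, Serf1 and Rtbdn were at the floor with BH4. Some genes that were high in the untreated allograft lay near the syngraft with BH4, at low signals. Stk10, a lymphocyte kinase, had 36.6 with BH4, 145 untreated and 37.2 on the syngraft array, and Slamf6, a receptor of lymphocytes, had 56.9 with BH4, 145 untreated and 51.3 on the syngraft array. The remaining small lists are read beside 13.9% higher and 10.6% lower (1.5-fold, BH4 against syngraft) over all genes, and their counts are given as values only. Erythroid genes gave 1 of 6 higher and 1 lower with BH4, adipose genes 3 of 13 higher and 2 lower, dendritic cell genes 1 of 11 higher and 1 lower, and skeletal muscle genes 1 of 14 higher and 4 lower. Calcium handling and ion channel genes of the heart had 3 of 15 lower and none higher, cardiac stress genes 2 of 8 lower and none higher, leukocyte adhesion molecules 2 of 7 higher and 2 lower, and sex-linked genes 1 of 4 lower and none higher. None of 11 housekeeping genes was at least 1.5-fold away from the syngraft with BH4, with a median of 0.20 that was 0.02 on the deposited values.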
